A study of Drosophila melanogaster with 8 samples.

Results

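The genes described here encode the basement membrane, the sheet of secreted matrix on which an epithelium rests, and the integrins, the cell surface receptors that hold cells to it. They are the collagen IV chains Col4a1 and viking (vkg), the collagen-binding protein SPARC, the laminin chains LanA, LanB1 and LanB2, and the integrin subunits myospheroid (mys), inflated (if) and multiple edematous wings (mew). They were taken from a list of 10 named genes by symbol, and 9 of the 10 were matched among the 17559 gene IDs of the count tables. The perlecan gene trol was not analysed here. All 9 passed the filter on low counts in every comparison.

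Gene expression was profiled by RNA-seq in whole imaginal discs of the wing from Drosophila melanogaster, the larval sacs of epithelium that form the wing and thorax. The discs also carry the adult muscle precursors (AMPs), and the series asks what the Hox gene Antp regulates in those cells. Control discs came from the cross of the driver line 1151 to w1118 (wt, 4 libraries). The other discs, 1151>AntpCRISPR, came from larvae in which that driver line directs CRISPR to Antp (CRISPR, 4 libraries). Both genotypes carry the driver and were kept at 29 °C, and discs were taken at the wandering stage, about 5 days after the eggs were laid. No CRISPR transgene is present in the control cross, so an effect of Antp and an effect of the transgene or of the background cannot be told apart. Of the 8 libraries, wt 2, wt 3, CRISPR 1 and CRISPR 2 are labelled as used in the submitters' analysis, and the remaining 4 as not used. The labels do not say whether each library is a separate pool of animals, so p-values reflect only the spread between libraries, and that spread may be technical.

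In the basement membrane, laminin trimers of an alpha, a beta and a gamma chain bind cell surface receptors and form the first layer, and a network of collagen IV is laid over it and linked to it by perlecan and nidogen. In Drosophila larvae the fat body makes much of the collagen IV and releases it into the hemolymph, from which the discs take it up into their matrix, while blood cells and other cells make collagen IV as well. The position-specific integrins pair the beta subunit mys with the alpha subunit mew, found mainly on the dorsal wing surface, or if, found mainly on the ventral surface. These receptors hold the wing surfaces together and anchor muscles to tendon cells.

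Gene reads per library ranged from 35076546 to 47980221. The libraries wt 2 and wt 3 were the closest pair within a genotype, with a chi-square per degree of freedom of 10.6 against 109 to 392 for the other pairs, which is above counting noise, so they were kept as separate libraries. Levels are CPM, read counts scaled to a common library size with TMM factors. All 9 matched epithelial markers of the disc were detected in every library, with summed levels of 2967 to 3484 CPM, as were all 8 AMP markers (254 to 364 CPM). Summed midgut markers came to 1477, 1491 and 837 CPM for wt 2, wt 3 and CRISPR 3, against 20.5 to 83.4 CPM for the other 5 libraries, and Mal-A1, a maltase of that list, had no read in most libraries. In the order of their numbers, the wt libraries had Antp at 195, 137, 140 and 121 CPM and the CRISPR libraries had it at 211, 166, 145 and 148 CPM. Its ranges overlapped between genotypes, though Antp was higher in CRISPR in 4 of 4 same-numbered pairs. A sign-flip test over these pairs gave an unadjusted p of 0.125, the smallest it can give. Since a CRISPR cut need not lower a gene's RNA, this level does not check the genotype labels.

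Levels of different genes are set side by side only per kilobase of exonic sequence. On the scale of CPM per kb, the laminin beta chain LanB1 was the highest of the 9 genes, at 83.0 ± 17.9 (SD, n = 8 libraries of both genotypes). It was followed by the laminin alpha chain LanA at 72.6 ± 23.2, SPARC at 64.5 ± 17.4, the laminin gamma chain LanB2 at 61.5 ± 10.9 and the integrin beta subunit mys at 61.4 ± 2.69. The alpha subunit mew stood lower at 44.7 ± 8.27. Col4a1 at 17.4 ± 7.89, the alpha subunit if at 16.3 ± 2.02 and vkg at 10.6 ± 5.02 CPM per kb formed the low end. LanB1 was above LanA in 8 of 8 libraries, mys above mew in 8 of 8 and mew above Col4a1 in 8 of 8, and neither of the last 2 pairs overlapped in range. LanA was above SPARC in 7 of 8, SPARC above LanB2 in 5 of 8 and LanB2 above mys in 6 of 8, so the order among these 4 was not the same in every library. LanB2 was below mys only in wt 4 and CRISPR 4, and LanA was below SPARC only in CRISPR 4. Both libraries had lower levels of long genes, as given below, and the part of that trend in this order was not tested. Col4a1 was above if in 4 of 8 libraries, and their order therefore cannot be given. Counting noise is small beside most of these differences, since every gene had at least 1067 reads in every library. The means of LanB2 and mys nearly coincide, and for them this does not hold.

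Col4a1 (FBgn0000299, 2L, 5029609 to 5037279, plus strand, dm6) and vkg (FBgn0016075, 2L, 5012144 to 5028191, minus strand) encode the collagen IV chains that assemble into one trimer. They lie head to head, with 1417 bases between their annotated starts. From number 1 to number 4, the Col4a1 level was 186, 128, 135 and 49.7 CPM among wt libraries and 100.2, 134, 82.1 and 40.4 CPM among CRISPR libraries. The lowest library of each genotype was number 4, and the genotypes overlapped. The vkg level, in the same order, was 124, 82.5, 85.2 and 33.0 CPM among wt libraries and 65.8, 88.7, 50.3 and 24.5 CPM among CRISPR libraries. It followed Col4a1 library by library, with wt 1 the highest and CRISPR 4 the lowest for both. Between the highest and the lowest library Col4a1 differed 4.60-fold and vkg 5.04-fold, the widest spans of the 9 genes. Their SD of log2 CPM over the 8 libraries, 0.76 and 0.79, exceeded that of 87.0% and 87.7% of the 9255 genes tested, for which the median SD was 0.25.

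SPARC (FBgn0026562, 3R, 26869238 to 26871995, minus strand) binds collagen IV and is needed in Drosophila for its normal deposition. It is the shortest of the 9 genes, with 1201 bases of exonic sequence. By number, its wt levels were 108, 81.7, 90.1 and 47.4 CPM, against CRISPR levels of 83.9, 92.6, 59.9 and 56.1 CPM. The number 4 libraries were again the lowest pair, CRISPR 3 lay just above them, and the genotypes overlapped.

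LanA (FBgn0002526, 3L, 6203831 to 6218022, minus strand) encodes one of the alternative laminin alpha chains, with 11690 bases of exonic sequence in its single annotated transcript. By number, its wt levels were 1126, 916, 927 and 491 CPM, against CRISPR levels of 1160, 949, 813 and 412 CPM. The libraries of numbers 1 to 3 lay between 813 and 1160 CPM, and the number 4 libraries had a mean of 452 ± 56.1 CPM (SD, n = 2). LanB1 (FBgn0261800, 2L, 7811438 to 7820771, plus strand) had wt levels of 661, 519, 533 and 364 CPM, against CRISPR levels of 659, 543, 529 and 364 CPM. LanB2 (FBgn0267348, 3L, 9614914 to 9623980, plus strand) had wt levels of 442, 369, 370 and 280 CPM, against CRISPR levels of 428, 368, 395 and 261 CPM. For all 3 laminin genes the number 1 libraries were the highest and the number 4 libraries the lowest in both genotypes, and the genotypes overlapped.

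The integrin beta subunit mys (FBgn0004657, X, 8061645 to 8070237, plus strand) was nearly level across the libraries, with wt levels by number of 281, 272, 275 and 271 CPM, against CRISPR levels of 302, 264, 265 and 271 CPM. Its highest library was 1.14-fold above its lowest, and only 0.508% of the 9255 genes tested had a smaller SD of log2 CPM than its 0.062. The alpha subunit mew (FBgn0004456, X, 13214409 to 13258490, minus strand) had wt levels of 291, 230, 232 and 195 CPM, against CRISPR levels of 293, 229, 224 and 166 CPM. Its exons share 107 bases with those of CG15742 on the same strand, so a small part of its count is uncertain. The alpha subunit if (FBgn0001250, X, 16752189 to 16783434, minus strand) had wt levels of 99.7, 105, 104 and 84.6 CPM, against CRISPR levels of 109.6, 91.4, 112 and 78.3 CPM. The number 4 libraries were the lowest pair for both alpha subunits but not for mys, and the genotypes overlapped for all 3 genes. None of the 9 genes had all CRISPR libraries above or all below the wt libraries, as 1.7% and 1.18% of the genes tested did.

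**Figure D1:**
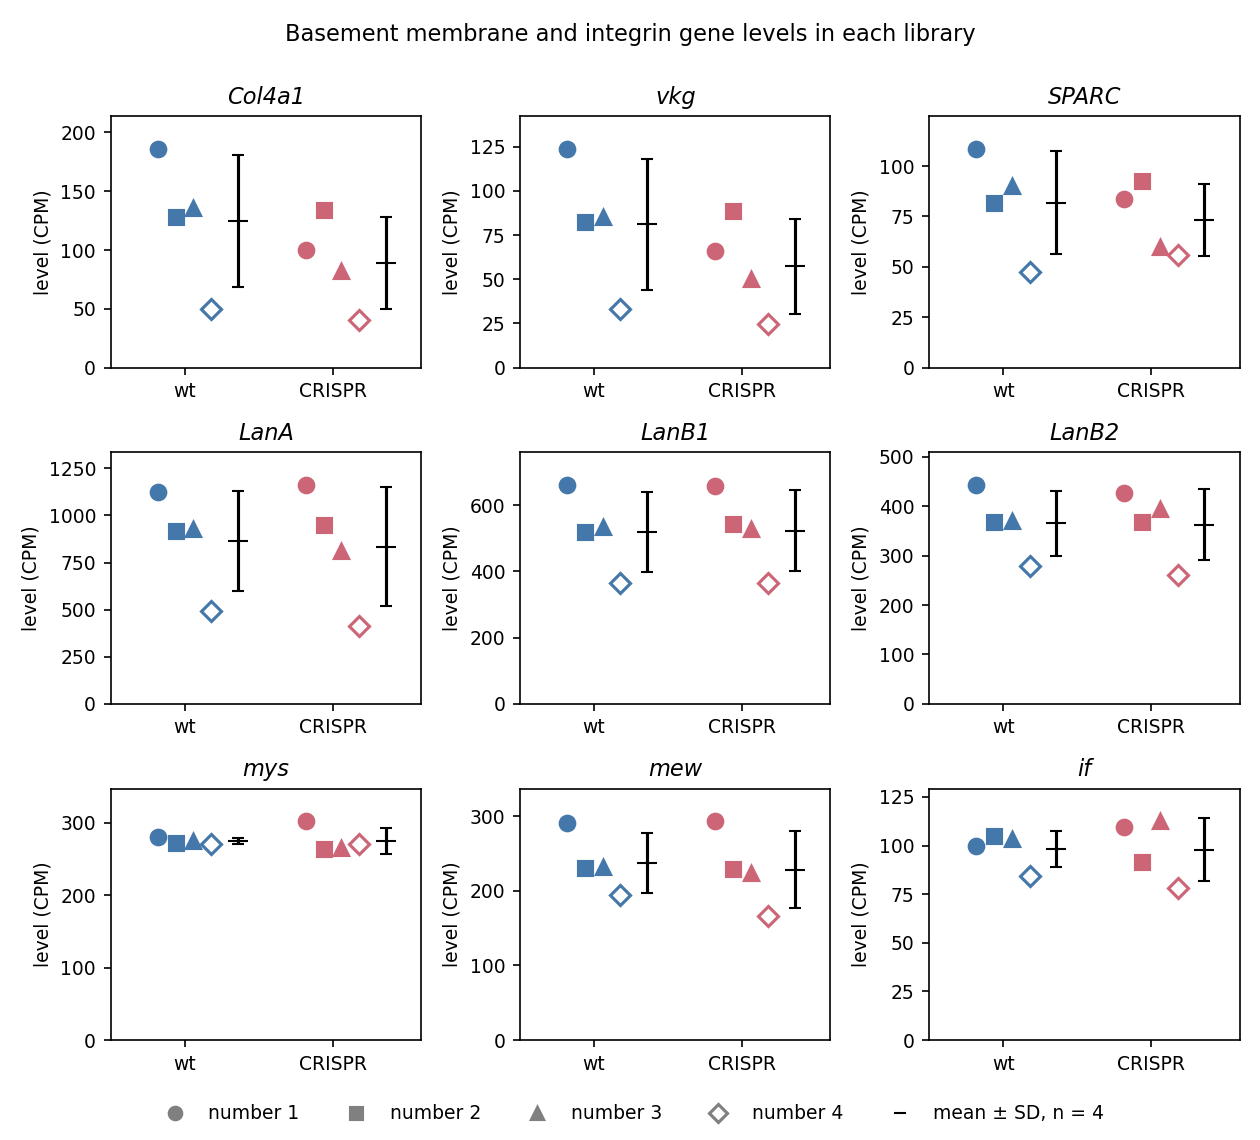
Levels of the 9 genes in CPM on a linear axis from 0, 1 panel per gene, with wt libraries in blue, CRISPR libraries in red, symbols for the replicate number and bars for the mean ± SD (n = 4 libraries per genotype). The open diamonds of number 4 are the lowest points of both genotypes except for mys, while the genotypes overlap in every panel.

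The first comparison asked whether these genes differed between genotypes over all 8 libraries. None of the 9 passed edgeR's quasi-likelihood test at an adjusted p under 0.05, where 0.184% of the 9255 genes tested were called (17 genes). In this fit none had an unadjusted p under 0.05 either, against 4.3% of all genes, and DESeq2 and limma-voom called none of the 9. The collagen IV chains had the largest differences, with a mean Col4a1 level of 125 ± 56.2 CPM for wt libraries against 89.1 ± 38.9 CPM for CRISPR libraries (SD over 4 libraries of each genotype). The log2 fold change of Col4a1 was -0.49 (SE 0.42) and that of vkg -0.50 (SE 0.44), each with an edgeR adjusted p of 0.9999. The size of these values depended on single libraries, while both stayed below 0 whichever library was left out. Without wt 1 they were -0.26 and -0.25 and without CRISPR 4 both were -0.27. Without wt 4 they were -0.77 and -0.78 and without CRISPR 2 -0.75 and -0.79. Without both number 4 libraries they were at -0.53 each (SE 0.21 and 0.24, edgeR unadjusted p = 0.0404 and 0.0637). In that fit 433 of 9466 genes tested had an unadjusted p under 0.05. Among the 4 not-used libraries alone they were -0.95 and -1.07, and none of these fits called either gene. Both genes were lower in CRISPR in 3 of 4 same-numbered pairs, though the labels do not give equal numbers as pairs and the data did not pair number 2. In a fit with the replicate number as a block, Col4a1 was at -0.47 (SE 0.16, edgeR unadjusted p = 0.0247, adjusted p = 0.533) and vkg at -0.50 (SE 0.17, edgeR unadjusted p = 0.0234, adjusted p = 0.522). They were the only 2 of the 9 genes with an unadjusted p under 0.05 in that fit, as 8.35% of all genes had, and neither passed after adjustment.

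The laminin, SPARC and integrin genes had smaller differences. LanB1 gave 0.012 (SE 0.22), LanB2 -0.0096 (SE 0.19), LanA -0.055 (SE 0.33) and the matrix protein SPARC -0.16 (SE 0.26), which was -0.029 without wt 1 and -0.37 without wt 4. For the receptors the values were 0.0025 for mys (SE 0.091), -0.0044 for if (SE 0.14) and -0.056 for mew (SE 0.18). Two-sided exact permutation tests of log2 CPM over 35 splits gave unadjusted p-values between 0.400 for Col4a1 and 0.971 for mys over these 9 tests, where the smallest possible p is 0.0286. A p that misses the threshold does not show that the genotypes have the same level, and with these errors a change of the size seen for Col4a1 was not detectable.

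Among the 4 libraries marked as used, again 0 of the 9 genes passed, where 2.72% of 9711 genes were called by edgeR and 22.4% had an unadjusted p under 0.05 (0 of the 9 genes). The Col4a1 mean was 132 ± 5.05 CPM over wt 2 and wt 3 against 117 ± 23.7 CPM over CRISPR 1 and CRISPR 2 (SD over 2 libraries each), a log2 fold change of -0.21 (SE 0.16, edgeR adjusted p = 0.503). LanA stood at 921 ± 7.56 and 1054 ± 149 CPM in the same libraries, a log2 fold change of 0.15 (SE 0.11, edgeR adjusted p = 0.459). The other 7 genes lay between -0.15 for vkg and 0.15 for LanB1. The libraries wt 2 and wt 3 differed by no more than 0.14 on the log2 scale for any of the 9 genes. Without CRISPR 1 edgeR called if lower, and without CRISPR 2 it called Col4a1 and vkg lower and LanA, LanB1, LanB2, mys and mew higher, in fits that assume the lone CRISPR library varies as little as wt 2 and wt 3 did. Those fits called 48.9% and 56.4% of all genes tested, respectively, so nothing is read from the calls of the 9 genes in them.

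**Figure D2:**
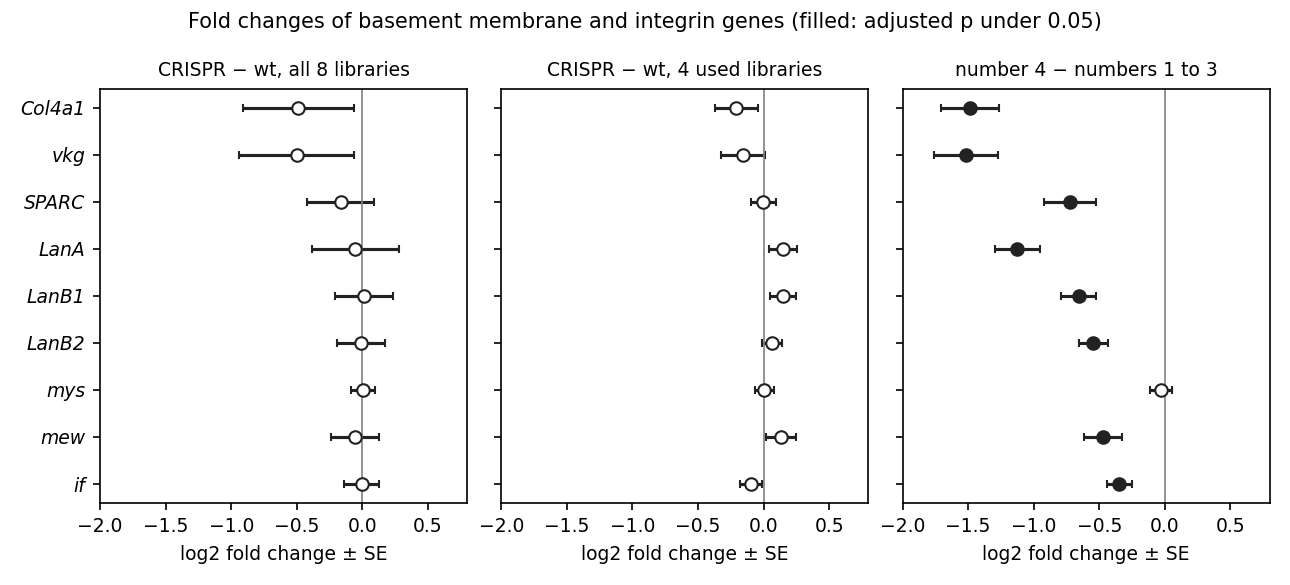
Log2 fold change ± SE of each gene from edgeR in 3 comparisons, with filled points for an adjusted p under 0.05. In both genotype panels all points are open, and in the panel of number 4 against numbers 1 to 3 every point but mys is filled and lies below 0.

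The second comparison set the libraries numbered 4 (wt 4 and CRISPR 4) against numbers 1 to 3, with genotype in the model. Number 4 was chosen with earlier results of these data known, so its calls describe how these genes behaved in 2 libraries that stand apart, and the labels give no meaning to the number. Both are among the libraries labelled as not used. Of the 9 genes, 8 fell and 0 rose at an edgeR adjusted p under 0.05, where 13.7% of the 9255 genes tested fell and 9.27% rose. In both number 4 libraries the same 8 genes lay below all 6 other libraries, as did 20.7% of all genes tested. With number 1, 2 or 3 in the place of number 4, edgeR called 0 genes at all. In those fits both number 4 libraries were part of the reference group and widened its spread. The SE of Col4a1 was 0.47 to 0.52 there, against 0.22 in the fit of number 4. Few calls could therefore be made, and nothing is read from the 0.

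The collagen IV chains fell most, with Col4a1 at 45.1 ± 6.61 CPM in number 4 (SD, n = 2) and 128 ± 35.5 CPM in numbers 1 to 3 (SD, n = 6). The log2 fold change was -1.49 for Col4a1 (SE 0.22, edgeR adjusted p = 0.00635) and -1.52 for vkg (SE 0.25, edgeR adjusted p = 0.00771). LanA followed with -1.12 (SE 0.17, edgeR adjusted p = 0.00658) and SPARC with -0.72 (SE 0.20, edgeR adjusted p = 0.0338). The other laminin chains fell less, LanB1 by 0.66 and LanB2 by 0.55 on the log2 scale, with edgeR adjusted p-values of 0.0141 and 0.0129. Among the receptors, mew fell by 0.47 and if by 0.35 on the log2 scale (edgeR adjusted p = 0.0488 and 0.0340). The beta subunit mys did not pass, with -0.029 (SE 0.083, edgeR adjusted p = 0.818).

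These calls rest on both number 4 libraries. Without wt 4, or without CRISPR 4, the calls of these genes were lost, as were nearly all calls over all genes tested. In each of those fits 1 library of number 4 remains. All 8 fold changes stayed below 0, with Col4a1 at -1.34 and -1.57 and SPARC at -0.44 and -0.96, respectively. Leaving out wt 2 or wt 3 left 5 of the 9 genes called in each case, with SPARC, mew and if not called. In those fits 928 of 9359 and 898 of 9367 genes tested fell, respectively. Leaving out CRISPR 1 left 6 of the 9 genes called, without SPARC and if, where 1134 of 9664 genes tested fell. Leaving out CRISPR 2 also left 6, without SPARC and mew, where 967 of 9572 genes tested fell. Within wt alone the log2 fold change of Col4a1 was -1.60 (SE 0.26) and within CRISPR alone it was -1.42 (SE 0.32). Each of these fits sets 1 library against 3, and the calls were lost in both. Without wt 2, wt 3 and CRISPR 3, the libraries with midgut transcripts, 7 of the 9 genes fell, where 1351 of 9330 genes tested fell. Col4a1 was at -1.69 there (SE 0.16, edgeR adjusted p = 0.00159).

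Transcript length moved with the same split of the libraries. Across the 9057 tested genes with an annotated length, Spearman's rho between exonic length and the log2 level relative to the median library was -0.37 in wt 4 and -0.46 in CRISPR 4, and it lay between -0.070 (CRISPR 3) and 0.25 (wt 3) in the other 6. No p is given, as genes of a library are not replicates of each other. In the comparison of number 4, genes with under 1500 bases had a median log2 fold change of 0.24 and 1.81% of them fell. Among the 1278 genes of 4000 to under 7000 bases the median was -0.34 and 35.8% fell, and among the 581 genes of at least 7000 bases the median was -0.62 and 52.2% fell. Col4a1, vkg, LanB1, LanB2, mys, if and mew belong to the class of 4000 to under 7000 bases and LanA to the longest class. The share of genes longer than each of these 8 was between 1.63% for LanA and 16.9% for mys, and 76.1% of genes were longer than SPARC.

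Set against genes of their own length class, the 9 genes separated. Only 2.58% of the genes of 4000 to under 7000 bases had a lower fold change than Col4a1, and 2.43% had a lower one than vkg. SPARC, with 1201 bases, fell although its length class had a positive median, and 9.23% of that class lay lower. LanA had 16.9% of its class below it, LanB1 23.3%, LanB2 31.0%, mew 38.0% and if 48.8%, so the integrin alpha subunits lay near the middle of their class. For mys 75.3% of the class lay lower.

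A fit with length offsets, which remove from each library its smooth trend with length, again set Col4a1, vkg and SPARC lowest. It called 11.2% of all genes (4.69% fell and 6.46% rose), and of the 9 genes 4 fell and 1 rose. The log2 fold change was -1.05 for Col4a1 (edgeR adjusted p = 0.0197), -1.06 for vkg (edgeR adjusted p = 0.0250), -0.85 for SPARC (edgeR adjusted p = 0.0351) and -0.44 for LanA (edgeR adjusted p = 0.0406). LanB1 (-0.22, edgeR adjusted p = 0.197), LanB2 (-0.14), mew (-0.11) and if (0.065) did not pass. The beta subunit mys rose by 0.27 (edgeR adjusted p = 0.0472), so it passed on this scale and not on the other. On the log2 scale, the distance of Col4a1 from the trend at its length was -0.93 in wt 4 and -1.10 in CRISPR 4, but also -0.44 in CRISPR 3 and 0.59 in wt 1, which have weaker length trends.

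**Figure D3:**
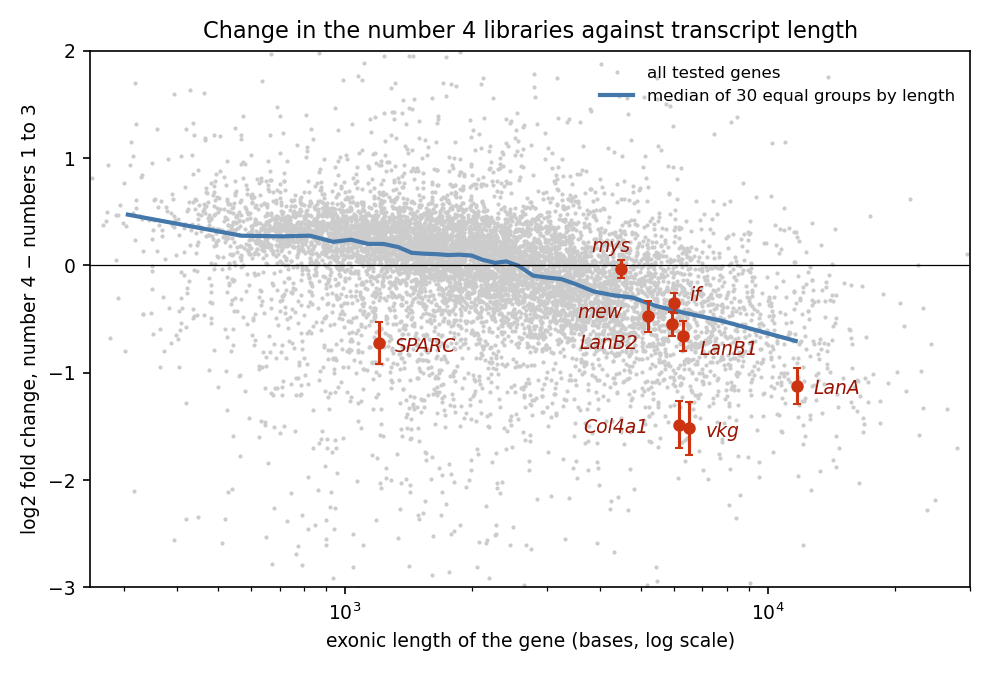
Log2 fold change of number 4 against numbers 1 to 3 for tested genes (grey) by exonic length on a log axis, with the median of equal-sized groups of genes by length (blue line) and the 9 genes with ± SE (red). Col4a1, vkg and SPARC lie well below the line at their length, LanB1, LanB2, mew and if lie near it, and mys lies above it. The axes leave out the most extreme genes.

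The subunits of a complex were also compared within each library, as ratios of CPM per kb. The ratio of Col4a1 to vkg was 1.59 in wt 1, 1.64 in wt 2, 1.68 in wt 3 and 1.59 in wt 4, and 1.61, 1.59, 1.72 and 1.74 in CRISPR 1 to CRISPR 4. It thus varied only 1.09-fold while each chain varied more than 4-fold. The ratio of LanB2 to LanB1 ranged from 0.689 (CRISPR 1) to 0.817 (wt 4), a 1.19-fold span. The ratio of LanA to LanB1 was 0.916, 0.948, 0.934 and 0.725 in wt and 0.946, 0.939, 0.826 and 0.608 in CRISPR, with the number 4 libraries lowest. These chains differ in exonic length, with 11690 bases for LanA and 6282 bases for LanB1, and the part of length in this ratio was not tested. The ratio of mew to mys ranged from 0.529 (CRISPR 4) to 0.893 (wt 1) and that of if to mys from 0.215 (CRISPR 4) to 0.317 (CRISPR 3).

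**Figure D4:**
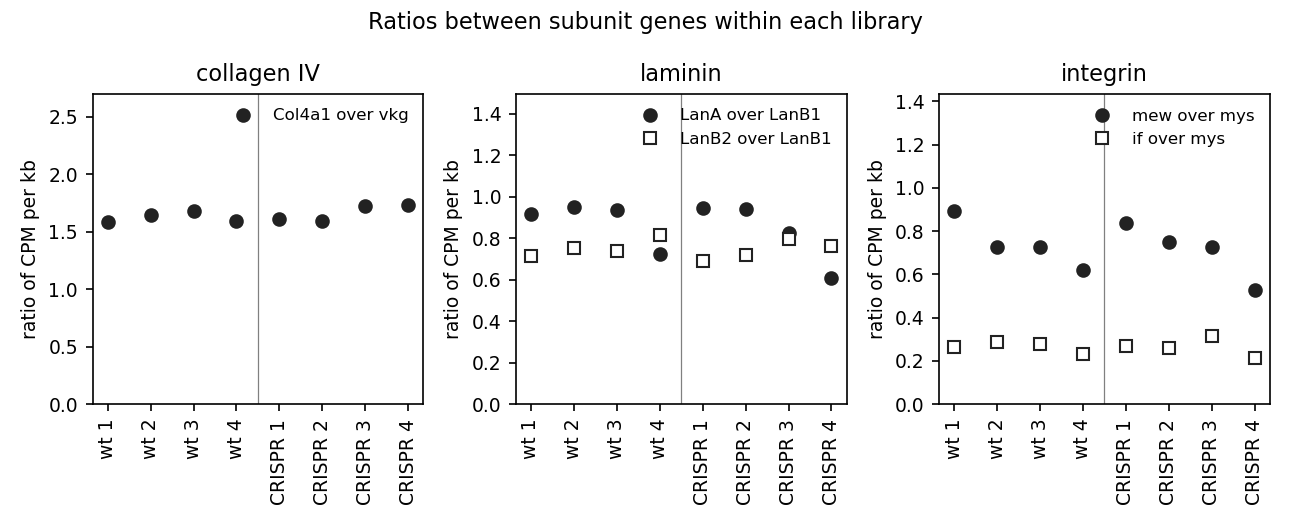
Ratios of CPM per kb between subunit genes in each of the 8 libraries, on axes from 0, for collagen IV, laminin and integrin. The Col4a1 to vkg ratio stays between 1.59 and 1.74, while LanA over LanB1 and mew over mys are lowest in CRISPR 4 and next lowest in wt 4.

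Other genes of the matrix and of adhesion were taken as 5 lists. In the genotype comparison over all 8 libraries none of their tested genes passed: 0 of 12 other basement membrane genes, 0 of 10 genes for making and secreting collagen IV, 0 of 7 remodelling genes, 0 of 1 other integrin subunits and 0 of 16 genes of the integrin adhesion complex. Their median log2 fold changes were -0.038, 0.024, 0.14, -0.067 and -0.050 against 0.023 over all genes. The lowest unadjusted p-values belonged to ics, whose human counterpart RSU1 is part of the integrin-linked kinase complex, and to PH4alphaEFB, a prolyl hydroxylase that modifies collagen IV. By number, ics had wt levels of 54.4, 51.6, 52.9 and 61.7 CPM, against CRISPR levels of 74.5, 79.3, 65.1 and 78.9 CPM. The genotypes did not overlap, and 1.7% of the genes tested likewise had all CRISPR libraries above all wt libraries. The log2 fold change of ics was 0.43 (SE 0.11, edgeR adjusted p = 0.420). DESeq2, which called 78 of 9255 genes, gave 0.42 with an adjusted p of 0.0215. PH4alphaEFB gave -0.52 (SE 0.21, edgeR unadjusted p = 0.0330) and did not pass. Without wt 2, wt 3 and CRISPR 3, the libraries with midgut transcripts, it was at -0.11 (SE 0.20, edgeR unadjusted p = 0.594), and among the 4 not-used libraries at -0.24.

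Among the 4 used libraries ics was the only gene of these lists that passed, and it rose from 52.2 ± 0.897 to 76.9 ± 3.36 CPM (SD, n = 2 each), a log2 fold change of 0.52 (SE 0.074, edgeR adjusted p = 0.0484). Without wt 2 or without wt 3 its log2 fold change was 0.50 and 0.53, respectively. It did not pass in these fits, which leave a lone wt library and can call few genes. PH4alphaEFB (-0.77, edgeR adjusted p = 0.0710), the lysyl hydroxylase Plod (-0.43, edgeR adjusted p = 0.0633), the integrin ligand Tig (-0.75, edgeR adjusted p = 0.0699) and loh (-1.10, edgeR adjusted p = 0.0802), which encodes a matrix protein related to ADAMTS enzymes, did not pass with edgeR. DESeq2, which called 8.04% of all genes tested, called all 4 lower, with an adjusted p between 8.67e-05 (PH4alphaEFB) and 0.0174 (loh). It also called ics higher, as edgeR did, Loxl1 higher (0.80, DESeq2 adjusted p = 0.0164) and Reck lower (-0.38, DESeq2 adjusted p = 0.0267), 2 genes of the remodelling list that edgeR did not call. The fat body markers, whose tissue makes collagen IV, moved with these libraries. They summed to 524 and 535 CPM for wt 2 and wt 3 against 31.5 and 63.7 CPM for CRISPR 1 and CRISPR 2. Midgut markers did as well, with sums of 1477 and 1491 CPM against 28.0 and 30 CPM in the same order. Among the used libraries a genotype difference and a carry-over of these tissues therefore cannot be told apart. The part of either tissue in these values was not tested. Col4a1 and vkg lay within the range of the other libraries in wt 2 and wt 3.

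In the number 4 libraries the same lists were mixed, and their counts are read against the 13.7% of all genes that fell and the 9.27% that rose. Of 12 other basement membrane genes 2 fell, the matrix peroxidase Pxn (-1.04, edgeR adjusted p = 0.0140) and the glypican dlp (-0.28, edgeR adjusted p = 0.0357). Of 10 genes for making and secreting collagen IV, Crag, which directs the basal secretion of matrix proteins in Drosophila, fell (-1.08, edgeR adjusted p = 0.00545) and Sar1, a GTPase of secretory vesicle coats, rose (0.39, edgeR adjusted p = 0.0248). The protease gene AdamTS-B was the only one of 7 remodelling genes that passed, with -1.07 (edgeR adjusted p = 0.00658).

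Of 16 adhesion complex genes, 4 fell in number 4 and 1 rose. Those that fell were rhea, the talin that links integrins to actin (-1.004, edgeR adjusted p = 0.00965), Zasp52 (-1.03, edgeR adjusted p = 0.00496), Vinc, which encodes vinculin (-0.56, edgeR adjusted p = 0.0114), and the kindlin Fit1 (-0.48, edgeR adjusted p = 0.0105). Zyx, which encodes zyxin, rose by 0.55 (edgeR adjusted p = 0.0386). By number, rhea had wt levels of 295, 219, 220.2 and 139 CPM, against CRISPR levels of 282, 230.2, 201 and 104 CPM, with the number 4 libraries lowest. With length offsets 5 of the 10 genes called in these lists still passed, namely AdamTS-B (-0.82), Crag (-0.60), Zasp52 (-0.38), Sar1 (0.35) and Zyx (0.60), with edgeR adjusted p-values between 0.0133 and 0.0459. The others did not pass, with rhea at -0.34 (edgeR adjusted p = 0.0831). Without wt 4 Crag was at -1.22 and Zasp52 at -1.14, and without CRISPR 4 they were at -0.88 and -0.87. In each of those fits 1 library of number 4 remains. Most calls of these 10 genes were lost there, as were nearly all calls over all genes tested. The medians of the list of adhesion genes and of all genes were -0.30 and 0.017.

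Markers of the other cell types that make matrix proteins were set beside the collagen IV level, as summed CPM of each list. Fat body markers (8 of 8 detected in every library) summed to 34.8 CPM in wt 4 and 23.6 CPM in CRISPR 4 and to 31.5 to 535 CPM in numbers 1 to 3. The highest sums, in wt 2 and wt 3, came with Col4a1 levels below that of wt 1, whose fat body sum was 60.8 CPM. Hemocyte markers (8 of 8 detected in every library) summed to 52.9 CPM in wt 4 and 49.8 CPM in CRISPR 4, within the range of 36.3 to 68.4 CPM in the other 6 libraries. Tracheal markers (5 of 5 detected) summed to 886 and 912 CPM in the number 4 libraries and to 1068 to 1544 CPM in the others. The groups did not overlap, and of single genes tested 20.7% also lay below all 6 others in number 4. AMP markers summed to 274 and 254 CPM in number 4 and to 284 to 364 CPM in the others, while the epithelial markers overlapped. The part of these cell types in the collagen IV level was not tested, and in whole discs fewer cells of a type and less RNA per cell cannot be told apart. The sums are not corrected for transcript length, and the part of the length trend of number 4 in them was not tested.

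**Figure D5:**
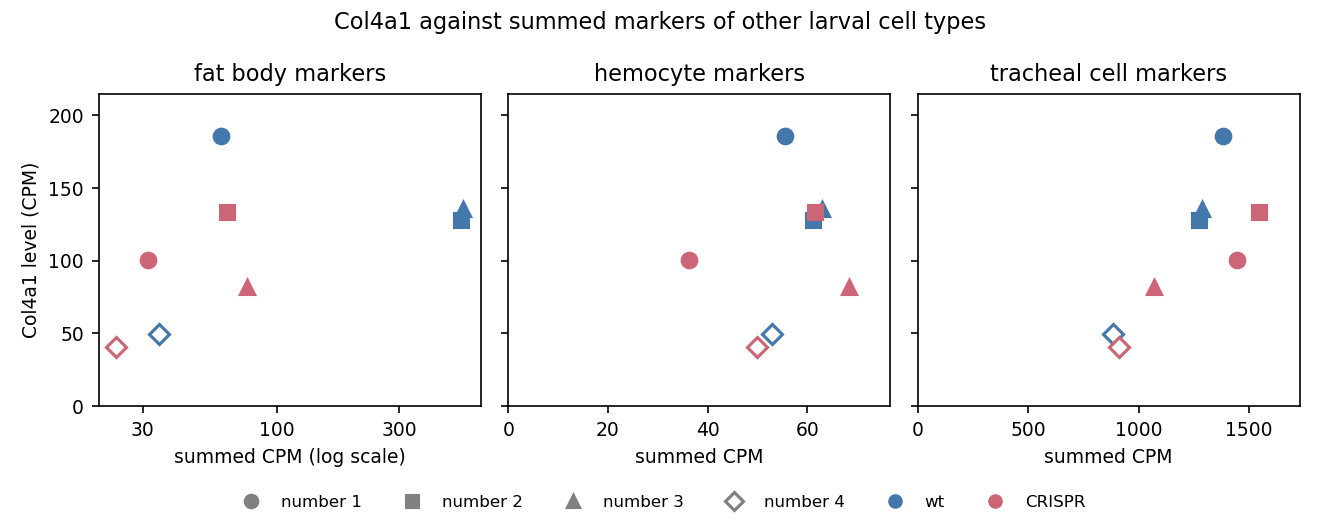
Col4a1 level in CPM against the summed CPM of fat body (log axis), hemocyte and tracheal cell markers in the 8 libraries, with colours for genotype and symbols for replicate number. The number 4 libraries have the lowest Col4a1 and tracheal sums but hemocyte sums within the range of the others, and the libraries with the highest fat body sums do not have the highest Col4a1.

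The genes whose log2 CPM was most like that of 3 of these genes over the 8 libraries were taken from 6432 genes with a mean log2 CPM of at least 3. The 8 libraries share their depth and the split of number 4, so Pearson's r is given as a measure of likeness, with r over the 6 libraries of numbers 1 to 3 beside it. For Col4a1 the nearest was vkg (r = 0.998, and 0.997 without number 4), followed by CG14441 (0.983 and 0.924), CG10211 (0.982 and 0.920), Gyg (0.982 and 0.947) and Mbs (0.974 and 0.946). SPARC came 85th by r (0.934, and 0.926 without number 4). LanA was at 0.915 with all libraries and at 0.463 without number 4, and LanB1 at 0.862 and 0.295, so laminin was less like collagen IV without the number 4 libraries.

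For LanB1 the nearest were RAF2, polybromo, Uba1, FBgn0032340 and Sym, with r between 0.994 and 0.996 over 8 libraries and between 0.978 and 0.993 without number 4. LanB2 came 61st by r (0.982, and 0.921 without number 4) and LanA 123rd (0.976 and 0.925). The integrin gene mew came 366th (0.954), and without number 4 its r of 0.988 was above those of both laminin chains. For mys they were CG42709, m-cup, eIF5, ssp and sax, with r between 0.934 and 0.949. Among the 9 genes mew was nearest to mys, with r = 0.634, and 0.849 without number 4.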

How the data were processed

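Each library has 1 table of raw read counts, which the authors deposited without normalization. The submitters' processing notes name FastQC, Trimmomatic 0.36, STAR, DESeq2 and build dm6. Which program counted the reads, and whether it used strand, is not given in these sources. Per the labels' protocols, the RNA was total RNA (Monarch kit) and the library kit was ThruPLEX. Of each table, 5 rows that name no gene stayed out of sizes and tests (no feature 0.955% to 1.91%, ambiguous 3.07% to 3.44%, not unique 2.22% to 4.40% of reads).

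Symbols were matched for 17253 of 17559 IDs, and 126 of 135 list entries had an ID. Coordinates and exonic lengths are from Ensembl's annotation of the same assembly. The test was edgeR 4.0.16 under R 4.3.3 (normalization by TMM, low genes removed by filterByExpr at 10 counts and a total of at least 15, two-sided quasi-likelihood test, Benjamini-Hochberg adjustment over all genes tested, threshold 0.05), and the scripts were tested on simulated data. DESeq2 1.42.0 and limma 3.58.1 were the other tools. Length offsets came from a lowess curve per library (span 0.5). Log2 CPM used a prior count of 0.5.

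The genes, lists, comparisons and most alternatives were chosen with earlier results of these data known. Named genes are the list of 10, Antp, the 2 genes of each pathway list with the smallest p in each fit, every pathway gene that passed, and the 5 genes most like Col4a1, LanB1 and mys, of which the text gives a selection. Deviations of same-numbered libraries of the 2 genotypes had r = 0.447, 0.161, 0.445 and 0.720 for numbers 1 to 4. Numbers 1 and 4 were each closest to their own number. Number 2 was not, as wt 2 was closer to CRISPR 3 (0.446), and CRISPR 2 was closer to wt 1 (0.264) and wt 3 (0.177). CRISPR 3 was about as close to wt 2 as to wt 3. The numbers were taken to pair the libraries from these data and not from the labels, so that pairing is uncertain. A count of 0 allows up to 0.0602 to 0.0937 CPM (3 counts), which covers counting error only. Trol and 8 other list entries were not matched and were not analysed here.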

Additional observations from a re-analysis of the deposited data

How the results depend on the processing

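Between genotypes over all 8 libraries, 0 of the 9 genes passed under every alternative, while the count of all genes called by edgeR, 17, became 78 with DESeq2, 8 among the not-used libraries, 0 without number 4 and 0 without the 3 libraries with midgut transcripts (433 and 123 genes at an unadjusted p under 0.05), and 1 to 26 when each library was left out. The replicate block gave 14 genes and 0 of the 9. Log2 fold changes near 0 changed sign. LanB1 went to -0.0027 with RLE factors and with DESeq2, -0.011 without number 4 and -0.20 among the not-used libraries. The value of mys went to -0.012 with RLE factors and with DESeq2, -0.0040 without the filter, -0.023 without number 4 and -0.044 among the not-used. LanA, LanB2 and if went to 0.044, 0.057 and 0.063 with length offsets and to 0.040, 0.057 and 0.059 with offsets and replicate block. Without the midgut libraries LanA was at 0.056 and if at 0.015, and if was at 0.047 among the not-used. Leaving out each library gave -0.77 to -0.26 for Col4a1, -0.79 to -0.25 for vkg, -0.37 to -0.029 for SPARC, -0.27 to 0.14 for LanA, -0.14 to 0.12 for LanB1, -0.13 to 0.091 for LanB2, -0.046 to 0.026 for mys, -0.086 to 0.060 for if and -0.20 to 0.039 for mew.

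Among the 4 used libraries the 264 genes called became 400 without the filter, 781 with DESeq2, 398 with limma-voom and 39 to 5759 when each library was left out, where 0 to 2 of the 9 genes fell and 0 to 5 rose. SPARC was at 0.0042 without the filter. Leave-one-out ranges were -0.45 to 0.0086 for Col4a1, -0.41 to 0.070 for vkg, -0.091 to 0.097 for SPARC, 0.030 to 0.27 for LanA, 0.034 to 0.27 for LanB1, -0.018 to 0.15 for LanB2, -0.065 to 0.083 for mys, -0.20 to 0.016 for if and -0.024 to 0.28 for mew. A fit without the midgut libraries was not run, as no wt library would remain.

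For number 4, the 2128 genes called became 1032 with length offsets (4 of the 9 fell, 1 rose, with mys at 0.27 and if at 0.065), 1 within wt and 0 within CRISPR (2233 and 1579 at an unadjusted p under 0.05, 0 of the 9 called by edgeR), fits added after seeing the data with 1 library against 3, and 0 to 3086 when each library was left out (0 to 8 of the 9 fell, mys -0.044 to 0.027). The cause of these shifts was not tested. The exact permutation tests and length correlations kept their direction under their alternatives.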
